A study of Mus musculus with 12 samples.

Results

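The 10 cytosolic and mitochondrial heat shock genes described here were measured in a mouse model of T-ALL, the acute leukaemia that arises from developing T cells. They were taken by symbol from the 23174 rows of each deposited table. Of the 10 genes, 9 (Hspa8, Hsp90aa1, Hsp90ab1, Hspd1, Hspe1, Stip1, Dnajb1, Hsph1 and Hspa4) had a row of their own, and Dnaja1 stood only in an entry joined with the microRNA gene Mir207, so its values cannot be assigned to Dnaja1 alone. All 10 passed the filter of a mean of at least 1 FPKM in both tables, as did 10245 genes ex vivo and 10741 genes in the tumours.

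The 12 samples were RNA-seq libraries of leukaemia cells from C57BL/6 mice, and all carried Notch1-deltaE+, an activated form of Notch1. Ex vivo, 3 samples received AMD3100, an antagonist of the CXCL12 receptor CXCR4, and 3 received vehicle, numbered 1 to 3 in both groups. In the other experiment, 3 primary tumours with the genotype Cxcr4-/- (numbered 5, 7 and 8) were set against 3 with the genotype Cxcr4+/+ (numbered 1, 2 and 4). The labels describe spleen cells kept on OP9 stromal cells treated with mitomycin C, with IL-7 (a T cell growth cytokine) at 5 ng/ml, for every sample, tumours included. Stromal marker and haemoglobin levels, given below, differed between tumours and ex vivo samples. Whether the tumours were cultured before their RNA was taken was not tested. How Notch1-deltaE+ was introduced, how Cxcr4 was deleted, the age of the mice, the AMD3100 dose and the exposure time are not given in the sources. Whether samples within a group are separate animals or cultures is also not stated, so p-values cover only the spread among these libraries, and that spread may be technical.

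Heat shock proteins are chaperones that keep other proteins folded, and the heat shock factor HSF1 switches their genes on by binding repeats of the bases GAA in their promoters. In the cytosol, J proteins such as those made by Dnajb1 and Dnaja1 hand unfolded proteins to HSP70, here the constitutive form encoded by Hspa8, and nucleotide exchange factors such as those of Hspa4 and Hsph1 release them again. Stip1 encodes the adaptor that passes proteins from HSP70 to HSP90, which stabilises many kinases and receptors. Hspd1 and Hspe1 encode the chaperonin of the mitochondrial matrix and its lid.

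The heat shock element was searched for in RefSeq promoter windows (build GRCm38.p6), which run from 250 bases before to 50 bases after an annotated start. Windows were found for 7 of the 10 genes, 12 windows in all, and Hspa8, Hsp90aa1 and Hsp90ab1 had none. An element of 3 units, GAANNTTCNNGAA or its reverse complement TTCNNGAANNTTC (both strands, overlapping matches allowed), occurred in windows of 3 genes, Hspd1, Hspe1 and Hsph1. These were 4 of the 12 windows, against 0.603% of all 32851 windows in the RefSeq table. The matching Hspd1 and Hspe1 windows overlap, as do those of Hsph1, so the 4 are not independent and the shares are not compared by a test. The shorter pair of units, GAANNTTC or TTCNNGAA, of which the longer element is made, occurred also in a window of Dnaja1. It was found in 5 of the 12 windows, and in 15.1% of all windows. Such a match is a description of the letters and not a measured binding site.

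The windows of Hspe1, Hsph1 and Stip1 are shown because the first pair hold the 3-unit element and were the members with the largest log2 differences between tumour genotypes, and Stip1 had the smallest paired p ex vivo. They are written 5′ to 3′ on the strand of the gene, with matches to the heat shock element in capitals. The Hspe1 window lies at chr1:55087898-55088197 (plus strand), the Hsph1 window at chr5:149636266-149636565 (minus strand) and the Stip1 window at chr19:7039977-7040276 (minus strand).
Hspe1: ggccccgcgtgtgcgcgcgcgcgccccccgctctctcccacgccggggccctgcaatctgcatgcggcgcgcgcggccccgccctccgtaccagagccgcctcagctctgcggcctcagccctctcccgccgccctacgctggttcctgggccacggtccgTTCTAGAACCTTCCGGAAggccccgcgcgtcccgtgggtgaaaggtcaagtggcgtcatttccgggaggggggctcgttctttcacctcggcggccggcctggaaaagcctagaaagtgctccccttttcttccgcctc
Hsph1: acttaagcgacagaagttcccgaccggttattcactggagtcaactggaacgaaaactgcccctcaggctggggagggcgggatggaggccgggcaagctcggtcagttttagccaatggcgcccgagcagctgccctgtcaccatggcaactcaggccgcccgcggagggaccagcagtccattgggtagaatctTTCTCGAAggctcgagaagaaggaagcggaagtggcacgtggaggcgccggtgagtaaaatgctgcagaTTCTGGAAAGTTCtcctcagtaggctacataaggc
Stip1: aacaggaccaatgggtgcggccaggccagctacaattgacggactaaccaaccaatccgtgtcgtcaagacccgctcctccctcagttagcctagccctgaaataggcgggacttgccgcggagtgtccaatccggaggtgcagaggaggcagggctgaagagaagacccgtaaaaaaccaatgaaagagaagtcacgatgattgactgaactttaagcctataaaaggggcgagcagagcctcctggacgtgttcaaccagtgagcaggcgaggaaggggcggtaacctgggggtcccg
In Hspe1 the matches form 1 run of 18 bases that begins 89 bases before the start. Hspd1 lies head to head with Hspe1. The Hspd1 window at chr1:55087883-55088182 (minus strand) shares 285 bases with the Hspe1 window, so the same run of letters is the match in both windows. In Hsph1 the 3-unit element begins at base 16 counted from the start, and a separate 2-unit match begins 54 bases before the start. In another Hsph1 window, not shown, the same matches begin at base 37 and 33 bases before its own start. The Stip1 window held no match to either form, 4 copies of CCAAT and 1 of TATAAA, letters found in 37.4% and 13.6% of all windows.

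Levels are FPKM, that is reads per unit of transcript length relative to the library's mapped reads, and differences as log2 of FPKM + 1, a scale that understates changes of low genes. Summed FPKM was between 444803 and 480468 in ex vivo libraries and between 368118 and 581159 in tumours, and read depth is unknown apart from a relative estimate ex vivo, 1.06 to 1.25 in AMD3100 samples and 0.757 to 1.00 in vehicle samples, relative to vehicle 1. The T lineage markers found in the tables, 13 of 15, were listed above 0 in every library. Their summed level was 4629 to 4900 FPKM in AMD3100 samples and 5107 to 5482 FPKM in vehicle samples, so the groups did not overlap. The summed level of 12 markers of OP9-like stroma was 433 to 538 FPKM in AMD3100 samples and 132 to 461 FPKM in vehicle samples. Dcn and Lum were at 0 in every ex vivo library. In the tumours this sum was 109 to 259 FPKM with Cxcr4-/- and 78.1 to 182 FPKM with Cxcr4+/+. There Col3a1, Sparc, Acta2, Col1a2, Cxcl12, Bgn, Dcn and Lum were at 0 in every tumour. What remained of the sum came from the other markers, which need not be stromal. The part of T lineage or stromal RNA in the ex vivo differences was not tested. In bulk samples fewer cells of a type and less RNA per cell cannot be told apart. Haemoglobin took 2.76% to 20.4% of summed FPKM in Cxcr4-/- tumours and 1.29% to 23.0% in Cxcr4+/+ tumours, against at most 0.000139% ex vivo. Cxcr4 itself stood at 23.2, 78.9 and 21.9 FPKM in Cxcr4-/- tumours 5, 7 and 8, against 241, 155 and 206 FPKM in Cxcr4+/+ tumours 1, 2 and 4. The genotypes did not overlap for Cxcr4. The sources do not say which part of the gene was deleted, so the remaining signal does not test the deletion.

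Near-identical gene copies can split or merge reads, and how reads with several positions were handled is not stated in the sources. Of the 50-base windows in the longest coding transcript of each gene (GENCODE, GRCm38), 74.8% in Hspa8 also occurred in transcripts of 13 other genes. The share was 58.5% in Hsp90aa1, 44.8% in Hspd1, 44.8% in Hspe1 and 28.8% in Dnaja1. It was 5.59% in Stip1, 4.49% in Hsp90ab1 and 0.441% in Dnajb1, and 0 in Hspa4 and Hsph1. Levels of the first 5 genes are therefore uncertain. Gapdh, with 82.5% of such windows shared, was listed at or near 0 in every library.

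Ex vivo, 9 of the 10 heat shock genes were lower by mean log2 under AMD3100 than under vehicle, against 49.7% of all genes tested. When same-numbered samples were paired, Hspa8, Hsp90aa1, Hspd1 and Stip1 fell under AMD3100, by 0.28 to 0.54 on the log2 scale, and no member rose. The median over the 10 was -0.31, against 0.0022 over all genes tested. The 4 of 10 that fell compare with 9.92% of all genes tested that fell in the paired fit. The members and the related gene lists below were chosen with earlier results of these data known. The paired falls of Hspa8, Stip1 and Hspd1 were among those results. Counts of members or list genes set against all genes are therefore a description and not a test. Without pairing 0 of 10 passed an adjusted p under 0.05, as did 0.127% of all genes tested, while 6 of 10 were lower at an unadjusted p under 0.05, against 12.0% of all genes. The groups did not overlap for 6 of 10 members, all lower under AMD3100, against 15.8% of all genes. The paired calls rested on 3 pairs: without pair 1 or without pair 2 no member was called, and without pair 3 the count was 3, while over all genes the 2036 paired calls (19.9%) became 9, 7 and 1207.

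**Figure D1:**
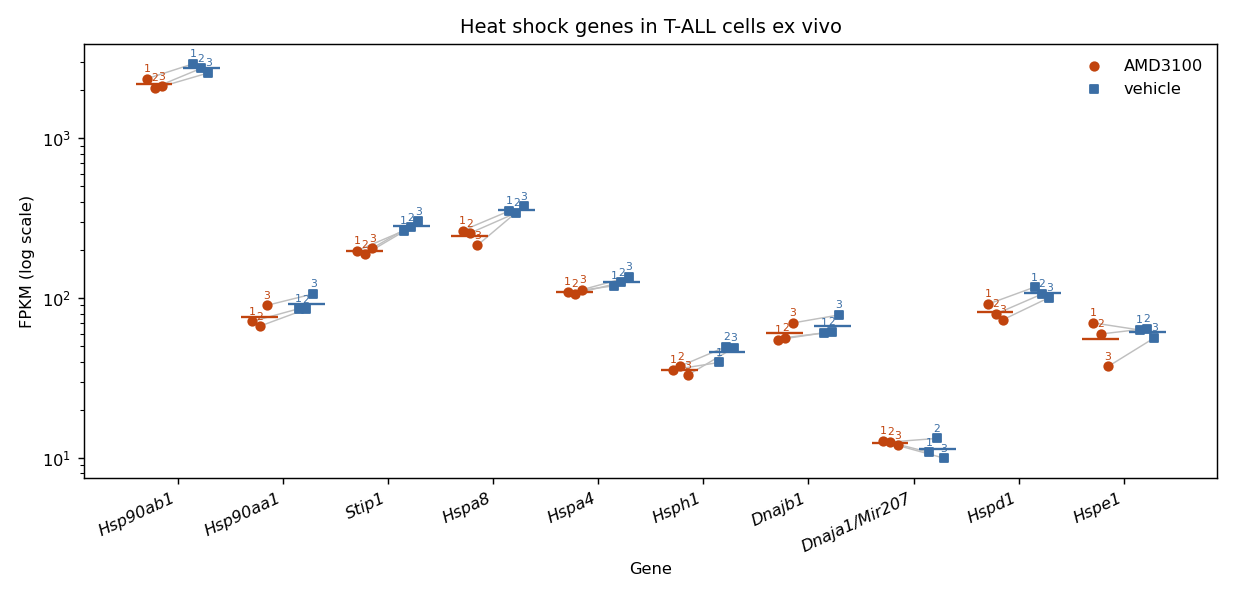
FPKM of the 10 heat shock genes ex vivo on a log axis, with 1 circle per AMD3100 sample and 1 square per vehicle sample, numbered by replicate; horizontal bars are group means and grey lines join same-numbered samples. Every AMD3100 point lies below every vehicle point for Hsp90ab1, Stip1, Hspa8, Hspa4, Hsph1 and Hspd1.

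In the HSP70 machinery, Hspa8 fell under AMD3100 when samples were paired. It stood at 264, 255 and 214 FPKM in AMD3100 samples 1, 2 and 3, against 350.1, 341 and 376 FPKM in vehicle samples 1, 2 and 3. All AMD3100 samples were below all vehicle samples, and pair 3 lay widest apart. The mean was 244 ± 26.9 FPKM under AMD3100 and 356 ± 17.7 FPKM under vehicle (SD, n = 3 each), a ratio of 0.687. The log2 difference was -0.54 (SE 0.107, adjusted p = 0.0705 without pairing; SE 0.105, adjusted p = 0.0306 with same numbers paired, limma). With quantile normalisation the paired difference was -0.39 (adjusted p = 0.0609), so the call was lost.

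The nucleotide exchange factors of the HSP110 family, Hspa4 and Hsph1, were lower without passing the threshold. Hspa4 stood at 109, 107 and 113 FPKM in AMD3100 samples, against 119, 126 and 135 FPKM in vehicle samples. Hsph1 stood at 35.6, 37.5 and 32.9 FPKM in AMD3100 samples, against 39.6, 49.8 and 48.9 FPKM in vehicle samples. Neither gene's groups overlapped, and all 3 pairs of each went the same way. The log2 difference of Hspa4 was -0.21 (adjusted p = 0.203 unpaired and 0.0822 paired) and that of Hsph1 was -0.37 (adjusted p = 0.148 unpaired and 0.0573 paired).

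The J protein genes had the smallest differences. Dnajb1, the inducible J protein of the HSP70 cycle, stood at 55.0, 56.6 and 69.9 FPKM in AMD3100 samples, against 60.7, 61.4 and 78.5 FPKM in vehicle samples. The groups overlapped, but the sample numbered 3 was the highest of both and each AMD3100 sample was below its own vehicle partner, by 0.12 to 0.17 on the log2 scale. The difference of -0.14 had an adjusted p of 0.657 unpaired and 0.157 paired. The joined Dnaja1 entry, at 12.8, 12.6 and 12.0 FPKM under AMD3100 against 10.8, 13.3 and 9.97 FPKM under vehicle, was the only member with a higher mean under AMD3100. Its difference of 0.13 had an adjusted p of 0.628 unpaired and 0.382 paired, and its groups overlapped.

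In the HSP90 machinery, the constitutive form Hsp90ab1 had the highest level of the 10 by mean FPKM in both tables. It stood at 2360.1, 2072 and 2108 FPKM in AMD3100 samples, against 2926, 2732 and 2561 FPKM in vehicle samples. The groups did not overlap, and the difference of -0.33 had an adjusted p of 0.189 unpaired and 0.0800 paired. The inducible form Hsp90aa1 stood at 71.4, 66.7 and 90.1 FPKM in AMD3100 samples, against 85.8, 85.3 and 106 FPKM in vehicle samples. Its groups overlapped because sample 3 was the highest of both, and the pairs differed by -0.26, -0.35 and -0.24. The same mean difference of -0.28 therefore had an SE of 0.149 unpaired (adjusted p = 0.345) and 0.063 paired (adjusted p = 0.0402). With quantile normalisation the paired difference was -0.20 (adjusted p = 0.0887), so this call was lost too.

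Stip1, the adaptor between HSP70 and HSP90, had the smallest p of the 10 in both fits. It stood at 198, 187 and 205 FPKM in AMD3100 samples, against 264, 278 and 302 FPKM in vehicle samples. No sample overlapped, and the mean was 197 ± 8.77 FPKM under AMD3100 and 281 ± 19.5 FPKM under vehicle (SD, n = 3 each). The log2 difference was -0.51 (SE 0.085, adjusted p = 0.0602 unpaired; SE 0.070, adjusted p = 0.0199 paired).

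In the mitochondrial chaperonin, Hspd1 and its lid partner Hspe1 differed in how uniform they were. Hspd1 stood at 91.8, 79.4 and 73.2 FPKM in AMD3100 samples, against 117, 106 and 101 FPKM in vehicle samples, with no overlap. Its difference of -0.41 had an adjusted p of 0.114 unpaired and 0.0226 paired. Hspe1 stood at 70.0, 59.6 and 37.4 FPKM in AMD3100 samples, against 63.2, 64.5 and 56.4 FPKM in vehicle samples. AMD3100 sample 1 was the highest of the 6 and AMD3100 sample 3 the lowest, so the groups overlapped. The Hspe1 difference of -0.18 (adjusted p = 0.733 unpaired and 0.401 paired) was 0.08 without AMD3100 sample 3.

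By pair, the median difference over the 10 members was -0.20 in pair 1, where 8 were lower, -0.37 in pair 2, where 10 were lower, and -0.37 in pair 3, where 9 were lower. Of the 10, 8 were lower in 3 of 3 pairs, against 29.4% of all genes tested. Their summed level made up 0.652% to 0.700% of summed FPKM in AMD3100 samples and 0.786% to 0.870% in vehicle samples, a share dominated by Hsp90ab1. Over the 10174 genes with a known transcript length, shorter genes tended to be lower under AMD3100 (Spearman rho = 0.34 across genes, which are not independent replicates). With the paired fit corrected for length, the count of members called was 4, while Hspe1, the shortest member transcript at 774 bases, stood at -0.0065, against -0.18 uncorrected.

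**Figure D2:**
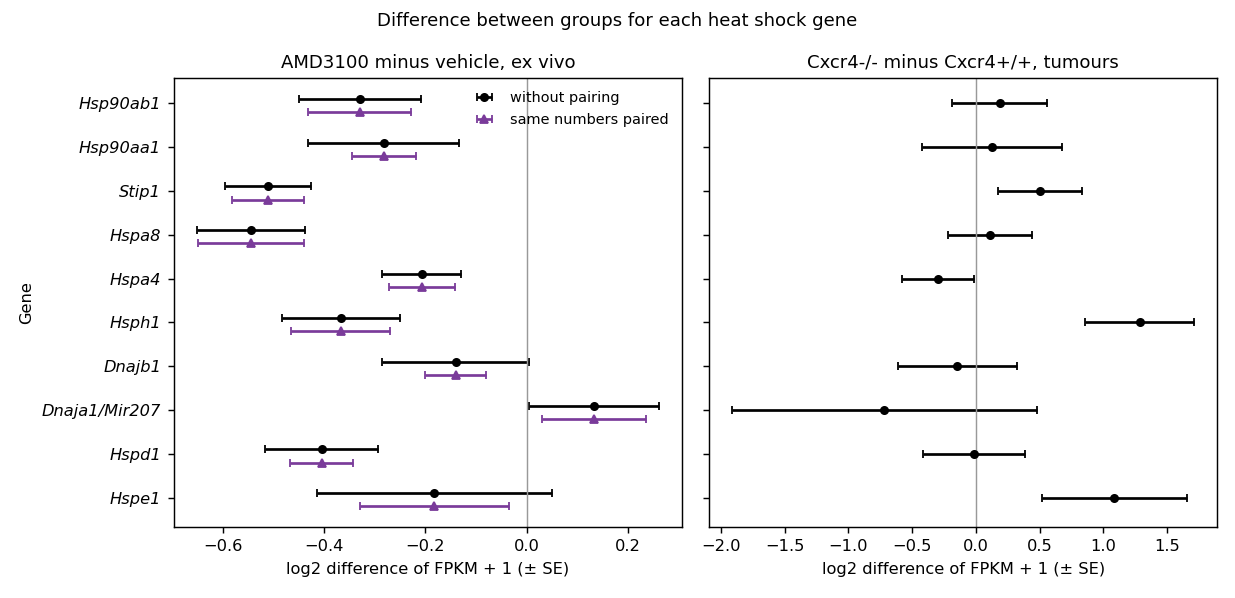
Differences between groups in log2 of FPKM + 1 for each of the 10 genes, AMD3100 minus vehicle on the left and Cxcr4-/- minus Cxcr4+/+ on the right, with bars of 1 SE (n = 3 samples a group; the axis on the right is wider); circles are the fits without pairing and triangles the fit with same numbers paired. Of the ex vivo points 9 of 10 lie below 0, while the tumour points lie on both sides of 0 with Hsph1 at 1.28 and Hspe1 at 1.09.

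Related chaperone genes were read from the same paired fit, each list against the 9.96% of all genes that rose and the 9.92% that fell. Without pairing 0 genes of any of these lists passed an adjusted p under 0.05. At an unadjusted p under 0.05 without pairing, 12.0% of all genes tested were lower. The lower genes were 9 of 15 for TRiC and prefoldin, 7 of 21 HSP90 cochaperones, 7 of 15 ER genes and 3 of 15 mitochondrial genes. They were 6 of 25 other HSP70, J protein and exchange factor genes, 1 of 7 heat shock factors and regulators and 0 of 4 small heat shock proteins. By the same measure Tomm34, Bag6 and Ier5 were higher, with log2 differences of 0.30, 0.24 and 0.56. The share of all genes that were higher by this measure is not given, so these genes are not read as a result. Of 15 kept genes for TRiC, the cytosolic chaperonin, prefoldin, which delivers proteins to it, and their cofactors, 8 fell and 0 rose, with a median of -0.39. Examples are Cct6a (246, 229 and 209.5 FPKM under AMD3100 against 319, 307 and 319 under vehicle, log2 difference -0.47, paired adjusted p = 0.0242, unpaired 0.0655) and Pfdn5 (132, 119.8 and 117 FPKM against 171, 165 and 164 FPKM, log2 difference -0.44, paired adjusted p = 0.0201, unpaired 0.0614). Both had every AMD3100 sample below every vehicle sample. Cct8 also fell when paired (log2 difference -0.47, paired adjusted p = 0.0266, unpaired 0.305), with groups that overlapped.

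Of 21 HSP90 cochaperones, 7 fell, 1 rose and 13 were not called, with a median of -0.11. Those that fell were Nudc, Fkbp4, Ruvbl1, Ruvbl2, Ttc4, Ppid and Ppp5c. Fkbp4, an immunophilin that binds HSP90 in steroid receptor complexes, stood at 197, 183 and 177 FPKM under AMD3100 and 259, 229 and 245 FPKM under vehicle (log2 difference -0.39, paired adjusted p = 0.0251, unpaired 0.0769). Tomm34, which links the cytosolic chaperones to mitochondrial import, rose by 0.30 (paired adjusted p = 0.0414, unpaired 0.0936). The genes beyond the 3 with the smallest p of each list were named after their values were seen.

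Among 15 mitochondrial chaperones and quality-control proteases, 6 fell and 0 rose (median -0.17). Lonp1, the matrix protease, stood at 41.7, 36.9 and 34.6 FPKM under AMD3100 and 51.7, 50.3 and 52.7 FPKM under vehicle (log2 difference -0.45, paired adjusted p = 0.0284, unpaired 0.0712), and Timm44, which anchors mitochondrial HSP70 at the import pore, differed by -0.36 (paired adjusted p = 0.0267, unpaired 0.0769). Dnajc15 varied widely between pairs: its level was 23.9, 42.4 and 91.8 FPKM under AMD3100 and 34.8, 56.7 and 151 FPKM under vehicle, with each AMD3100 sample below its partner (paired adjusted p = 0.0212, unpaired 0.723). Mitochondrial HSP70 itself, Hspa9, was not called (212, 183 and 247 FPKM under AMD3100 against 222, 236 and 249 FPKM under vehicle, paired adjusted p = 0.296, unpaired 0.581), nor was the mitochondrial HSP90, Trap1 (log2 difference -0.17, paired adjusted p = 0.109, unpaired 0.237).

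Of 25 kept genes for other HSP70s, J proteins and nucleotide exchange factors, 4 fell, 1 rose and 20 were not called, with a median of -0.05. Dnajc9, a J protein that binds histones, differed by -0.39 (paired adjusted p = 0.0221, unpaired 0.0834) and Hspa14 by -0.37 (paired adjusted p = 0.0254, unpaired 0.0758). The gene that rose was Bag3, an exchange factor of HSP70 that HSF1 is known to induce, at 16.4, 15.1 and 12.1 FPKM under AMD3100 against 12.3, 11.0 and 8.70 FPKM under vehicle (log2 difference 0.42, paired adjusted p = 0.0308, unpaired 0.234). Its groups overlapped and each AMD3100 sample was above its partner. The ER lumen chaperones, most of which the unfolded protein response controls, had 5 that fell and 0 that rose of 15 (median -0.26). Pdia6 was among those that fell (log2 difference -0.62, paired adjusted p = 0.0197, unpaired 0.205).

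The inducible HSP70 genes Hspa1a and Hspa1b, classic HSF1 targets, were at or near 0 ex vivo, and the small heat shock protein gene Hspb1 was listed at 0 in all 6 libraries. Hspa1b had 0.352, 0.0854 and 0.0884 FPKM under AMD3100 and 0.214, 0.235 and 0.141 FPKM under vehicle, and 66.3% and 62.3% of the 50-base windows of Hspa1a and Hspa1b occur in other genes. Hsf1, which encodes the heat shock factor, stood at 24.1, 26.0 and 21.6 FPKM under AMD3100 and 23.6, 28.2 and 23.3 FPKM under vehicle (log2 difference -0.06, paired adjusted p = 0.554, unpaired 0.830). Of 7 kept heat shock factors and regulators, Ubb, a polyubiquitin gene, fell (log2 difference -0.54, paired adjusted p = 0.0199, unpaired 0.0641) and Ier5, an immediate early gene whose product is known to act on HSF1, rose. Ier5 stood at 21.8, 28.6 and 20.6 FPKM under AMD3100 and 14.3, 19.8 and 13.3 FPKM under vehicle (log2 difference 0.56, paired adjusted p = 0.0197, unpaired 0.173), and its groups did not overlap. None of the 4 kept small heat shock protein genes was called.

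**Figure D3:**
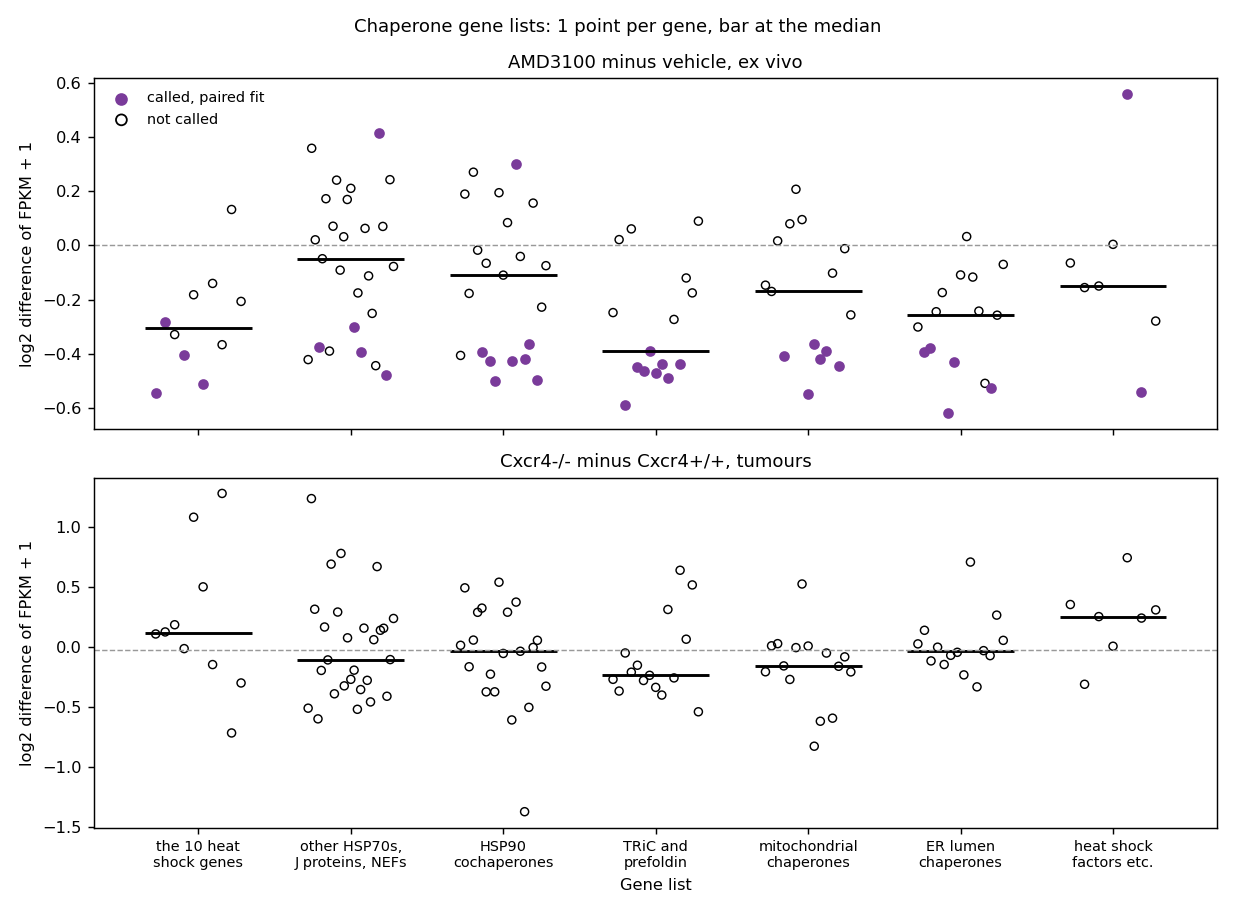
Differences in log2 of FPKM + 1 for the genes of 7 chaperone lists, AMD3100 minus vehicle above and Cxcr4-/- minus Cxcr4+/+ below, with 1 point per kept gene, a bar at each list's median and a dashed line at the median of all genes tested. Filled points passed an adjusted p under 0.05 in the paired fit, which the tumours do not have; TRiC and prefoldin have the lowest median ex vivo, -0.39.

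In the primary tumours the 10 members lay on both sides of 0. None of the 10 passed an adjusted p under 0.05 (4 of all genes tested did, 0.0372%), and 1, Hsph1, was higher in Cxcr4-/- tumours at an unadjusted p under 0.05, against 2.26% of all genes. The targeted gene Cxcr4 was not called either, at a log2 difference of -2.49 (unadjusted p = 0.00168, adjusted p = 0.986, limma). A missing call in this fit therefore does not show that a gene was unchanged. Of the 10 members, 6 were higher and 4 lower by their log2 difference, where 52.3% of all genes were lower, with a median of 0.12 against -0.03 over all genes. The groups did not overlap for 3 members, Hsph1, Hspe1 and Stip1, all higher in Cxcr4-/- tumours, against 4.01% of all genes. An exact permutation test of 3 against 3 cannot give a p under 0.1.

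**Figure D4:**
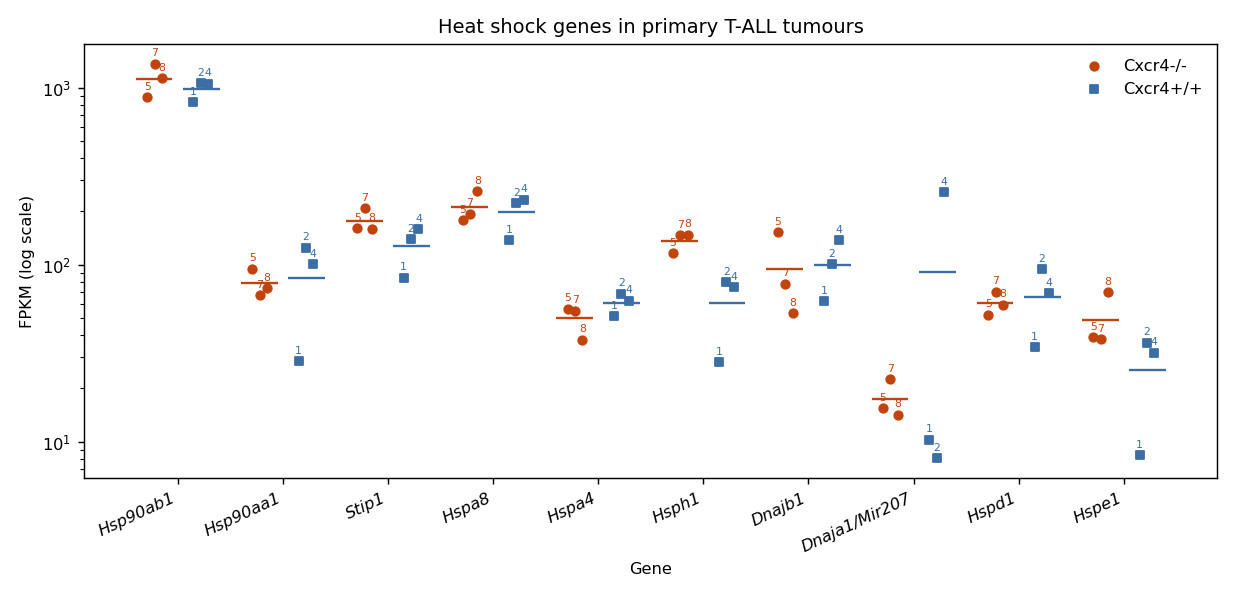
FPKM of the 10 heat shock genes in primary tumours on a log axis, with 1 circle per Cxcr4-/- tumour and 1 square per Cxcr4+/+ tumour, numbered as in the labels; horizontal bars are group means. The Cxcr4+/+ tumour 1 is the lowest point for 7 of the 10 genes, and the Cxcr4+/+ tumour 4 stands alone at 256 FPKM for the joined Dnaja1 entry.

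Hsph1, the inducible member of the HSP110 family, stood at 116, 147 and 148 FPKM in Cxcr4-/- tumours 5, 7 and 8, against 28.2, 80.0 and 74.5 FPKM in Cxcr4+/+ tumours 1, 2 and 4. Every Cxcr4-/- tumour was above every Cxcr4+/+ tumour, and Cxcr4+/+ tumour 1 was the lowest. The mean was 137 ± 18.3 FPKM in Cxcr4-/- tumours and 60.9 ± 28.5 FPKM in Cxcr4+/+ tumours (SD, n = 3 each), with a log2 difference of 1.28 (SE 0.430, unadjusted p = 0.0196, adjusted p = 0.986, limma). Without Cxcr4+/+ tumour 1 the difference was 0.81.

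Hspe1, the mitochondrial lid, stood at 38.8, 38.0 and 69.9 FPKM in Cxcr4-/- tumours, against 8.40, 36.3 and 31.8 FPKM in Cxcr4+/+ tumours. The groups were separated by a small gap, and Cxcr4+/+ tumour 1 was again the lowest. The log2 difference was 1.09 (SE 0.569, adjusted p = 0.986), and 0.45 without Cxcr4+/+ tumour 1. Stip1 stood at 161, 209 and 159.7 FPKM in Cxcr4-/- tumours, against 84.5, 139 and 158 FPKM in Cxcr4+/+ tumours. Its groups were separated by a small gap too, and its difference of 0.50 (SE 0.327, adjusted p = 0.986) was 0.23 without Cxcr4+/+ tumour 1.

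Cxcr4+/+ tumour 1 held the lowest value of 7 of the 10 members, and of 18.0% of all genes tested. Its summed T lineage level was the highest of the tumours, 6762 FPKM, against 2169, 4422 and 3657 FPKM in Cxcr4-/- tumours 5, 7 and 8 and 1738 and 2007 FPKM in the other Cxcr4+/+ tumours, and its haemoglobin share was the lowest. Without it the median difference of the 10 members was -0.27, where it was 0.12 with all 6 tumours. The part of cell composition in these values was not tested. Rescaling the libraries moved all genes: the median over all genes was -0.14 after leaving haemoglobin out of the totals and -0.22 after scaling to the T lineage markers. Hsph1 stood at 1.16 and 1.08 under these scalings, Hspe1 at 0.96 and 0.86, and Stip1 at 0.37 and 0.31.

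The other members overlapped between genotypes. Hspa8 stood at 178, 194 and 260.0 FPKM in Cxcr4-/- tumours, against 137, 223 and 233 FPKM in Cxcr4+/+ tumours (log2 difference 0.11). Hsp90ab1 stood at 883, 1366 and 1129 FPKM in Cxcr4-/- tumours, against 828, 1057 and 1053 FPKM in Cxcr4+/+ tumours (log2 difference 0.19). In Hsp90aa1, at 95.1, 67.6 and 73.4 FPKM in Cxcr4-/- tumours against 28.4, 125 and 100.5 FPKM in Cxcr4+/+ tumours, Cxcr4+/+ tumours held both the lowest and the highest value. Its log2 difference was 0.13, while its mean FPKM went the other way, 78.7 in Cxcr4-/- tumours and 84.6 in Cxcr4+/+ tumours. Hspd1 stood at 52.2, 70.3 and 59.4 FPKM in Cxcr4-/- tumours, against 34.3, 94.0 and 69.1 FPKM in Cxcr4+/+ tumours (log2 difference -0.01). Here too Cxcr4+/+ tumours held both the lowest and the highest value. The directions of Hspa8, Hsp90aa1 and Hsp90ab1 turned under scaling to the T lineage markers, and those of Hspa8 and Hsp90aa1 also without haemoglobin.

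Hspa4 stood at 56.5, 55.0 and 37.7 FPKM in Cxcr4-/- tumours, against 51.2, 68.7 and 62.7 FPKM in Cxcr4+/+ tumours (log2 difference -0.30). Dnajb1 stood at 152, 78.2 and 53.3 FPKM in Cxcr4-/- tumours, against 62.3, 101 and 137 FPKM in Cxcr4+/+ tumours (log2 difference -0.15). For Dnajb1 the highest tumour of each genotype was the one with the highest haemoglobin share, Cxcr4-/- tumour 5 at 20.4% and Cxcr4+/+ tumour 4 at 23.0%. The joined Dnaja1 entry stood at 15.5, 22.6 and 14.2 FPKM in Cxcr4-/- tumours, against 10.3, 8.07 and 256 FPKM in Cxcr4+/+ tumours. The single value in Cxcr4+/+ tumour 4 set the sign of its difference, -0.72 with that tumour and 0.84 without it.

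Within a library, a ratio of a pair of members does not depend on the library's total. Of 6 ratios computed in each table, 2 separated the tumour genotypes. The ratio of Hsph1 to Hspa4, the inducible and the constitutive HSP110 exchange factors, was 2.05, 2.68 and 3.92 in Cxcr4-/- tumours, against 0.550, 1.16 and 1.19 in Cxcr4+/+ tumours (exact two-sided permutation p = 0.1, the smallest possible). The ratio of Hspd1 to Hspe1 was 1.34, 1.85 and 0.850 in Cxcr4-/- tumours, against 4.08, 2.59 and 2.18 in Cxcr4+/+ tumours (exact two-sided permutation p = 0.1). The genotypes did not overlap for either ratio. Hsph1 and Hspe1 also separated the genotypes by level alone, and how often ratios of other genes did so was not computed. Ex vivo the same ratios overlapped: Hsph1 to Hspa4 was 0.327, 0.352 and 0.291 under AMD3100, against 0.332, 0.397 and 0.361 under vehicle (exact p = 0.2), and Hspd1 to Hspe1 was 1.31, 1.33 and 1.96 under AMD3100, against 1.85, 1.64 and 1.79 under vehicle (exact p = 0.4). By same-numbered pair, Hsph1 to Hspa4, Hsp90ab1 to Hsp90aa1 and Stip1 to Hsp90ab1 were lower under AMD3100 in 3 of 3 pairs and Dnajb1 to Hspa8 was higher in 3 of 3 pairs (exact paired sign-flip p = 0.25 for each, the smallest that 3 pairs allow). Some of these shifts were close to none. On the log2 scale Hsp90ab1 to Hsp90aa1 differed by -0.046, -0.045 and -0.042, and Hsph1 to Hspa4 by -0.023, -0.17 and -0.31. Stip1 to Hsp90ab1 differed by -0.10, -0.17 and -0.28, and Dnajb1 to Hspa8 by 0.26, 0.30 and 0.65. Neither exact test can reach 0.05 with these numbers of samples.

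**Figure D5:**
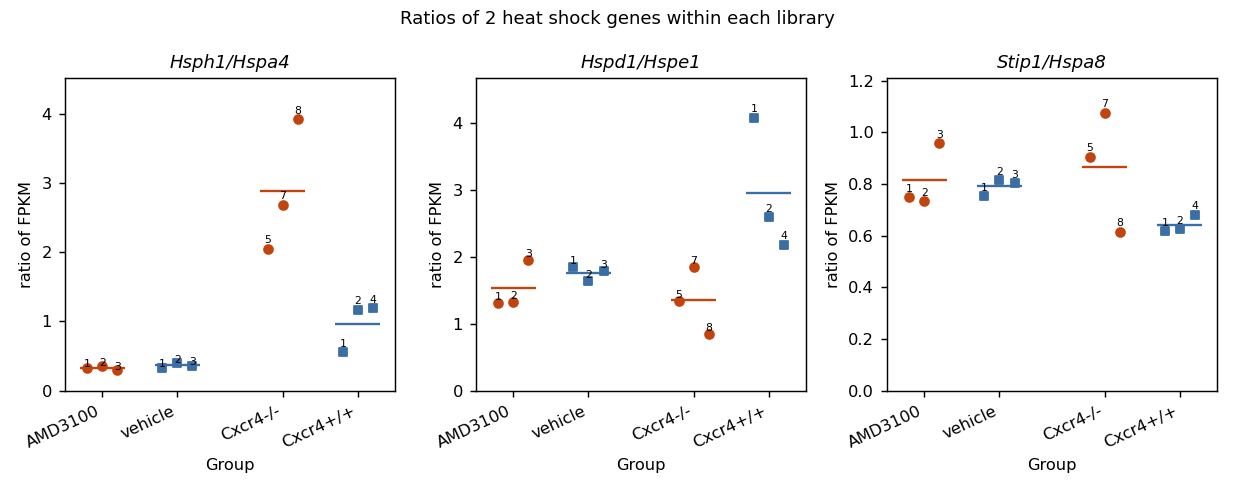
Ratio of the FPKM of a pair of heat shock genes within each library, with 1 point per sample, numbered by replicate, and a bar at each group mean; the axes start at 0. Hsph1 to Hspa4 lies at 2.05 to 3.92 in Cxcr4-/- tumours and 0.550 to 1.19 in Cxcr4+/+ tumours, while Stip1 to Hspa8 overlaps in both experiments.

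Among the related lists no gene was called in the tumours. The TRiC and prefoldin list, lowest ex vivo, had a median of -0.24 in the tumours, with 11 of 15 genes below 0, and the HSP90 cochaperones had a median of -0.03 over 21 genes. Ruvbl1, an ATPase that works with HSP90 in complex assembly, stood at 4.62, 6.72 and 1.42 FPKM in Cxcr4-/- tumours, against 12.0, 10.9 and 10.9 FPKM in Cxcr4+/+ tumours (log2 difference -1.37, adjusted p = 0.986). Timm44 stood at 19.0, 18.8 and 15.7 FPKM in Cxcr4-/- tumours, against 26.4, 36.8 and 34.7 FPKM in Cxcr4+/+ tumours (log2 difference -0.83, adjusted p = 0.986). Both were lower in every Cxcr4-/- tumour than in any Cxcr4+/+ tumour. The share of all genes separated in this direction is not given, and these genes were named for their small p. Their separation is therefore not read as a result. Ier5 stood at 24.9, 36.3 and 21.5 FPKM in Cxcr4-/- tumours, against 19.3, 12.7 and 15.5 FPKM in Cxcr4+/+ tumours, without overlap (log2 difference 0.75, adjusted p = 0.986). Hsf1 overlapped, at 15.5, 21.9 and 34.7 FPKM in Cxcr4-/- tumours against 17.3, 20.6 and 15.4 FPKM in Cxcr4+/+ tumours. Hspa1b reached 4.91 FPKM in Cxcr4+/+ tumour 4 and was listed at 0 in Cxcr4+/+ tumour 1.

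By mean level over a table's 6 samples, Hsp90ab1, Hspa8 and Stip1 had the highest levels, in this order, in both experiments. Ex vivo the spread within a member was narrow, with the highest sample 1.27 times (Hspa4) to 1.87 times (Hspe1) the lowest. In the tumours it was 1.65 times (Hsp90ab1) to 8.32 times (Hspe1), and 31.7 times for the joined Dnaja1 entry. Neighbours in the order by mean such as Hspa8 and Stip1 in both experiments, Dnajb1 and Hspe1 ex vivo, or Hsph1, Dnajb1 and Hsp90aa1 in the tumours, had overlapping ranges. In Cxcr4-/- tumour 7 Stip1, at 209 FPKM, stood above Hspa8, at 194 FPKM. Outside the lists, the genes whose profile over the 6 ex vivo samples was most like the mean standardised level of the members were Dld (Pearson r = 0.999), Hist1h3b, Hnrnpc, Polr2i and the joined Rpl34 entry (r = 0.992), and over the 6 tumours Csnk2b (r = 0.982), Mrps30, Mrps15, Ipo4 and Coq5 (r = 0.970). These are the highest of all kept genes, over 6 samples that also differ by group, and are given as a description.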

How the data were processed

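The authors deposited FPKM values of 23174 entries in 2 tables of 6 samples each. The tables were normalised apart, so comparisons were made only within a table. Per the labels' protocols, poly-A RNA was made into strand-specific libraries (dUTP method) and read from one end for 50 bases. CASAVA, TopHat and the build mm9 are named in the submitters' processing notes. The program behind the FPKM values and its treatment of reads with several positions are not stated there. Promoter windows and their coordinates come from RefSeq (GRCm38.p6), and no mm9 coordinates are printed.

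Differences were tested on log2(FPKM + 1) with limma 3.58.1 (R 4.3.3), using moderated variances with a trend on the mean and two-sided p-values. A mean of 1 FPKM or more over the 6 samples of a table was required. Benjamini-Hochberg adjustment ran over all kept genes, and a call is an adjusted p under 0.05. The scripts were tested on simulated data. Ex vivo, the main fit was unpaired. Deviations from the group means correlated at 0.467, 0.579 and 0.619 between samples of equal number, and at -0.473 to 0.0455 between samples of unequal number, so the numbers pair the samples, and paired values (replicate number as a block) stand beside the unpaired ones. What a replicate number marks is not labelled.

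The members and lists were chosen with earlier results of these data known, and the paired falls of Hspa8, Stip1 and Hspd1 were among those results. The rule for named genes took the 10 members, Hspa1a, Hspa1b, Hspb1, Hsf1, Hspa9, Trap1 and Cxcr4, the 3 kept genes of each other list with the smallest p, and the 5 genes outside the lists with the most similar profile. Not every gene so named is described. Alternatives were other pseudocounts, filters, scalings, variance models and thresholds, leaving out each sample, and the block. The block with a length correction and the scaling to T lineage markers were added after seeing the data.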

Additional observations from a re-analysis of the deposited data

How the results depend on the processing

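Without the replicate block, 0 members and 13 of all genes were called ex vivo. With the replicate block the counts were 4 and 2036, with the block and median-of-ratios scaling 4 and 2033, with the block and quantile normalisation 2 (Hspd1 and Stip1) and 1914, and with the block and a length correction 4 and 1196. With the block but without replicate 1, 2 or 3 the counts over all genes were 9, 7 and 1207, and those of the members 0, 0 and 3. Without the block, the count over all genes was 8 with no filter on low values, 188 with a mean of at least 5 FPKM, 3 with quantile normalisation, 1 without the mean trend and 847 at an adjusted p under 0.10. The members called were 1 (Stip1) with a mean of at least 5 FPKM and 2 (Hspa8 and Stip1) at an adjusted p under 0.10. Leaving out each sample in turn gave 3 to 5 genes ex vivo and 0 to 4 in the tumours, with 0 members in either. In the tumours 0 genes were called with no filter and 0 after scaling to the T lineage markers, against 4. The cause of these changes was not tested.

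Over single members, 331 values under an alternative kept their direction and side of the threshold, 20 newly passed it and 19 changed sign. Ex vivo, Hspe1 ranged from -0.37 to 0.076 as each sample was left out, turning positive without AMD3100 replicate 3, and was 0.017 in the block without replicate 3. Dnaja1 was -0.0087 with the block and length correction. In the tumours, Hspd1 was 0.0064 with quantile normalisation. Without haemoglobin in the totals Hspa8 was -0.020 and Hsp90aa1 -0.0016. Scaled to the T lineage markers, Hspa8 was -0.082, Hsp90aa1 -0.075 and Hsp90ab1 -0.0036. Leaving out each tumour in turn gave -0.13 to 0.25 for Hspa8, -0.52 to 0.53 for Hsp90aa1, -0.42 to 0.30 for Hspd1, -0.55 to 0.19 for Dnajb1 and -1.57 to 0.84 for Dnaja1. Hspa8 turned negative without Cxcr4-/- tumour 8 or Cxcr4+/+ tumour 1, and Hsp90aa1 without Cxcr4-/- tumour 5 or Cxcr4+/+ tumour 1. Hspd1 turned positive without Cxcr4-/- tumour 5, Cxcr4+/+ tumour 2 or Cxcr4+/+ tumour 4, Dnajb1 without Cxcr4-/- tumour 8 or Cxcr4+/+ tumour 4, and Dnaja1 without Cxcr4+/+ tumour 4. Hsph1, Hspe1 and Stip1 kept a positive difference in the tumours under all alternatives run, from 0.81 to 1.55, 0.45 to 1.45 and 0.23 to 0.68, with no adjusted p under 0.05. Absolute read depth is unknown, and no relative estimate is given for the tumours, where few low genes lay at 1 ratio.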

Other observations

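Some J protein genes outside the 10 members differed widely between tumours of the same genotype. Dnajb2, which encodes a J protein with ubiquitin-binding motifs, stood at 124, 21.7 and 55.0 FPKM in Cxcr4-/- tumours 5, 7 and 8, against 6.62, 27.7 and 170 FPKM in Cxcr4+/+ tumours 1, 2 and 4. These levels follow the order of the haemoglobin share of the 6 tumours, which was 20.4%, 2.76% and 6.55% in the same Cxcr4-/- tumours and 1.29%, 5.47% and 23.0% in the same Cxcr4+/+ tumours. Dnajb4 was at 104, 15.0 and 19.2 FPKM in Cxcr4-/- tumours, against 21.0, 38.2 and 87.3 FPKM in Cxcr4+/+ tumours. Dnaja4 was at 30.0, 4.85 and 6.09 FPKM in Cxcr4-/- tumours, against 1.90, 14.8 and 34.0 FPKM in Cxcr4+/+ tumours. Like Dnajb1, both were highest in Cxcr4-/- tumour 5 and Cxcr4+/+ tumour 4. These genes were picked after their values were seen, and the part of erythroid cells in them was not tested.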
